A study of Mus musculus with 22 samples.

Results

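The Ly49 receptors are surface lectins of natural killer (NK) cells that bind MHC class I molecules on other cells, and in the mouse they are encoded by the Klra genes of the natural killer gene complex on chromosome 6. A set of 9 of these genes was chosen by name, Klra1, Klra2, Klra3, Klra4, Klra6, Klra7, Klra8, Klra9 and Klra10, because transcripts of such receptors had been seen in EPCAM+ tumour cells. All 9 had a row among the 49671 genes of the deposited table. The choice rested on their levels in EPCAM+ libraries, so every difference between EPCAM- and EPCAM+ cells given here for them is a description with no test.

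The study made 22 RNA-seq libraries in 11 groups of 2 from cell lines grown from a mouse primary tumour, sorted as living mCherry+ YFP+ cells. Day 8 EPCAM- and EPCAM+ cells were sorted from lines in which Pitx1, Klf5, Nfatc1 or Creb3l1 had been knocked out with CRISPR/Cas9 and from the control line, and EPCAM+ cells of the control line were also sorted at day 0. Every library, controls included, carried Lgr5CreER, an inducible Cre under the Lgr5 locus, together with the alleles KrasLSL-G12D and p53fl/fl and the reporter Rosa26-YFP+/+. The mouse strain, the event that begins at day 0, and whether the libraries of a group come from separate cultures or clones are not given in the labels, so p-values measure only the spread between these libraries, which may be technical.

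Each Ly49 receptor falls into one of a pair of signalling classes. Inhibitory receptors, among them the products of Klra1 (Ly49A), Klra3 (Ly49C), Klra7 (Ly49G) and Klra9 (Ly49I), carry a cytoplasmic motif that recruits the phosphatase SHP-1, encoded by Ptpn6, when they meet MHC class I. Activating receptors, among them the products of Klra4 (Ly49D) and Klra8 (Ly49H), lack that motif and need the adaptor DAP12, encoded by Tyrobp, and Ly49H of C57BL/6 mice recognises a protein of mouse cytomegalovirus.

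In GENCODE M21 on GRCm38 all 9 members lie on the minus strand of chromosome 6. Klra8 spans chr6:130115226-130129898, Klra9 chr6:130178675-130193112, Klra3 chr6:130323289-130337574 and Klra4 chr6:130043731-130067271. With Klra6, Klra7, Klra10 and Klra1 they form a stretch of 374 kb, and Klra2, at chr6:131219223-131247362, lies a further 832 kb away. The windows from 250 bases before to 50 bases after the gene start are printed from RefSeq (GRCm38.p6, minus strand) for the 4 members with the highest levels and for Klra2, whose level did not follow theirs. Capitals mark a run of 17 letters, AAGCAATTTCCTCTTTT, found by searching the members' own windows for a shared stretch; both strands were searched. The Klra2 window does not hold it in full but matches 16 of the 17 letters at 1 place. A window of Klra7, not printed, also matches 16, and those of Klra10 and Klra1 match 10 at best.
Klra8 at chr6:130129849-130130148: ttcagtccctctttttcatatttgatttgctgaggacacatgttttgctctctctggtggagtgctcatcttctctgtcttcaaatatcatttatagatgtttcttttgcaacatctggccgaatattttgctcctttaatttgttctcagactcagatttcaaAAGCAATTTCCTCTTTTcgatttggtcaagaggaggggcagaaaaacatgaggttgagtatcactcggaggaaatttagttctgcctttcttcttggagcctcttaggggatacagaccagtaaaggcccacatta
Klra9 at chr6:130193063-130193362: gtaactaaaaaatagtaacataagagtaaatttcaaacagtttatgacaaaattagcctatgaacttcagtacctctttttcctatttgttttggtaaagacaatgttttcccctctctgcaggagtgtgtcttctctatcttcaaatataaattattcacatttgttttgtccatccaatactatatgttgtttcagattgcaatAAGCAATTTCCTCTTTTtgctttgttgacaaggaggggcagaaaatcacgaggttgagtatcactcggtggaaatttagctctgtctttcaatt
Klra3 at chr6:130337577-130337876: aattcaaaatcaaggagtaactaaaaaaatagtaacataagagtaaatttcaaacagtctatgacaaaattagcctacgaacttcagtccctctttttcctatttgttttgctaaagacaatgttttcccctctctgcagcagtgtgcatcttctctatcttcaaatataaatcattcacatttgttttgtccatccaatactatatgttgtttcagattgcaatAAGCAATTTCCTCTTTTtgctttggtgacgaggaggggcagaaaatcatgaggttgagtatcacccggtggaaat
Klra4 at chr6:130067222-130067521: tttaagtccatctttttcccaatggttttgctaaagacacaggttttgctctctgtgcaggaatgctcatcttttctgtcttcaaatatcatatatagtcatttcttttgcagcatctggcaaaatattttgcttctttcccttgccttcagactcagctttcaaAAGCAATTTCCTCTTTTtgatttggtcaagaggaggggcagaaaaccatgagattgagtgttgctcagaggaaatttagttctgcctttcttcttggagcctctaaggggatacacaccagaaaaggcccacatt
Klra2 at chr6:131247313-131247612: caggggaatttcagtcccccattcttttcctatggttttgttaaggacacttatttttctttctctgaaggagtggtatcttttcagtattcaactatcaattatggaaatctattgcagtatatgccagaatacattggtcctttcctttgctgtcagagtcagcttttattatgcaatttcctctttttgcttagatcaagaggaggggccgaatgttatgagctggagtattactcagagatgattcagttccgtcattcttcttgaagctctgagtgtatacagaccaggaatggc
Counted from the RefSeq gene start, the run starts at position -86 in Klra8, -44 in Klra9, -25 in Klra3 and -85 in Klra4. Another RefSeq window of Klra8, not printed, holds it at -149. The RefSeq start of Klra3 lies upstream of the GENCODE start given above, so its window ends before that start. The run was present in 8 of 32851 such windows in RefSeq (0.0244%), which belonged to Klra3, Klra4, Klra6, Klra8, Klra9, Klra17 and a predicted gene. Its presence did not go with the order of the fractions in every member. Klra6 holds it and had a median of 3 in both fractions. Klra10 does not and had medians of 0 in EPCAM- and 14.5 in EPCAM+ libraries. Klra17, which is not a member, holds the run and was at 0 in every library. Over the 300 bases, compared letter by letter without gaps, Klra3 and Klra9 shared 90.3% of positions, Klra8 and Klra4 shared 86.3%, and Klra8 and Klra9 shared 64.7%.

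Values are the authors' normalised read counts, scaled to 1 common total per library and rounded up, so that 1 read was worth 2.02 to 3.30 units. The libraries held 6054919 to 9882692 reads in genes, and 3 reads, the limit that a count of 0 allows, came to 6.07 to 9.91 units. The sort could be read back in Epcam, which was 90 to 735 in the 10 EPCAM- libraries and 3702 to 7320 in the 12 EPCAM+ libraries. Pitx1 was 1205 to 1627 in its knockout and 4358 to 6438 in the day 8 control line, and Nfatc1 was 182 to 249 against 488 to 981. Klf5 was 1961 to 2247 in its knockout, within the 1733 to 2941 of the day 8 control line, so its RNA level does not check that label. Creb3l1 was 0 to 6 in its knockout and, in the day 8 control line, 137 and 26 in EPCAM- cells but 0 in both EPCAM+ libraries.

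The 9 members together were low in every EPCAM- library and varied widely among the EPCAM+ libraries. Their summed value was 21 to 74 (median 43) in the 10 EPCAM- libraries and 48 to 735 (median 358.5) in the 12 EPCAM+ libraries, which rest on 171 and 1743 reads. In Pitx1 knockout cells the sum was 73 and 36 in EPCAM- libraries and 413 and 304 in EPCAM+ libraries, 6.58-fold lower in EPCAM- cells. In Klf5 knockout cells it was 27 and 21 in EPCAM- libraries and 48 and 139 in EPCAM+ libraries, 3.90-fold lower. The sum was lower in both EPCAM- libraries than in both EPCAM+ libraries of these lines and of the other 3.

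In Nfatc1 knockout cells the sum was 47 and 74 in EPCAM- libraries and 138 and 546 in EPCAM+ libraries, 5.65-fold lower in EPCAM- cells. In Creb3l1 knockout cells it was 57 and 61 in EPCAM- libraries and 178 and 482 in EPCAM+ libraries, 5.59-fold lower. In the control line it was 39 and 23 in EPCAM- libraries and 735 and 282 in EPCAM+ libraries at day 8, 16.4-fold lower, and 734 and 710 in EPCAM+ libraries at day 0. The replicate number is also a batch tag in the labels: among replicate 1 libraries the sum was 1.78 to 18.8-fold lower in EPCAM- cells of the 5 lines, and among replicate 2 libraries 6.62 to 12.3-fold lower. Leaving out 1 library moved the folds to between 2.00 (Klf5 knockout without EPCAM+ replicate 2) and 23.7 (control without EPCAM+ replicate 2). Because these are bulk libraries, fewer cells that carry a transcript and less of it per cell cannot be told apart.

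Klra8, the activating receptor Ly49H, had the highest median of the members in EPCAM+ libraries, 134, but not in EPCAM- libraries, where it was 3 against 16.5 for Klra2. It was 3 and 0 in EPCAM- libraries and 146 and 122 in EPCAM+ libraries of Pitx1 knockout cells, and 3 and 0 against 12 and 63 in Klf5 knockout cells. In Nfatc1 knockout cells it was 0 and 11 in EPCAM- libraries and 46 and 268 in EPCAM+ libraries, and in Creb3l1 knockout cells 6 and 10 against 67 and 205. In the control line it was 6 and 0 in EPCAM- libraries, against 303 and 109 in EPCAM+ libraries at day 8, and 323 and 342 in EPCAM+ libraries at day 0. In units no EPCAM- library, at most 11, reached the lowest EPCAM+ library, at 12, but both of these values were 4 reads. Klra8 was 28.5-fold lower in EPCAM- cells of the Nfatc1 knockout and 17.0-fold lower in those of the Creb3l1 knockout; the other lines held 1 or 2 reads in EPCAM- cells and no ratio is given. The ratios rest on 4 and 6 reads in EPCAM- cells, and leaving out 1 library moved them to between 8.36 (without EPCAM+ replicate 2) and 48.7 (without EPCAM+ replicate 1) in the Nfatc1 knockout and between 8.38 and 25.6, without the same replicates, in the Creb3l1 knockout. Without Nfatc1 knockout EPCAM- replicate 2 the EPCAM- value was 0 and no ratio was formed. The 10 EPCAM- libraries held 14 Klra8 reads in all and the 12 EPCAM+ libraries 744. Klra8 was the only member whose 10 EPCAM- and 10 EPCAM+ day 8 libraries did not overlap in units. In reads they met at 4. EPCAM- lay wholly below EPCAM+, in units, in 0.705% of all genes tested.

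Klra4, the activating receptor Ly49D, was above 0 in all 10 EPCAM- libraries. It was 37 and 6 in EPCAM- libraries and 117 and 29 in EPCAM+ libraries of Pitx1 knockout cells, 3 and 7 against 0 and 7 in Klf5 knockout cells, and 3 and 14 against 8 and 40 in Nfatc1 knockout cells. In Creb3l1 knockout cells it was 18 and 35 in EPCAM- libraries and 20 and 55 in EPCAM+ libraries. In the control line it was 15 and 10 in EPCAM- libraries and 97 and 30 in EPCAM+ libraries at day 8, with 107 and 58 in EPCAM+ libraries at day 0. Only in the control line did the fractions not overlap for Klra4; a test of that difference between lines was not made.

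Klra9, the inhibitory receptor Ly49I, was 0 and 0 in EPCAM- libraries and 57 and 83 in EPCAM+ libraries of Pitx1 knockout cells, and 0 and 0 against 9 and 36 in Klf5 knockout cells. In Nfatc1 knockout cells it was 3 and 9 in EPCAM- libraries and 32 and 133 in EPCAM+ libraries, and in Creb3l1 knockout cells 6 and 5 against 45 and 118. In the control line it was 0 and 0 in EPCAM- libraries, against 178 and 76 in EPCAM+ libraries at day 8, and 152 and 177 in EPCAM+ libraries at day 0. Where EPCAM- cells were at 0, the EPCAM+ mean was set against 3 reads per library. By that bound Klra9 was at least 9.26-fold lower in EPCAM- cells of the Pitx1 knockout and at least 3.14-fold lower in those of the Klf5 knockout. In those of the control line it was at least 16.5-fold lower. Such a bound covers the count of 0 and not the spread of the EPCAM+ libraries. Klf5 knockout EPCAM+ replicate 1, at 9, held 3 reads. Klra9 was 13.8-fold lower in Nfatc1 knockout and 14.8-fold lower in Creb3l1 knockout EPCAM- cells, from 4 reads in EPCAM- cells of each. With 1 library left out it was 5.33 (without EPCAM+ replicate 2) to 27.5-fold (without EPCAM- replicate 2) lower in the Nfatc1 knockout. In the Creb3l1 knockout it was then 8.18 to 21.5-fold (without EPCAM+ replicate 2 and 1) lower.

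Klra3, the inhibitory receptor Ly49C, was 3 and 0 in EPCAM- libraries and 24 and 26 in EPCAM+ libraries of Pitx1 knockout cells, 0 and 0 against 6 and 9 in Klf5 knockout cells, and 6 and 3 against 3 and 60 in Nfatc1 knockout cells. In Creb3l1 knockout cells it was 3 and 3 in EPCAM- libraries and 20 and 47 in EPCAM+ libraries. In the control line it was 0 and 0 in EPCAM- libraries and 71 and 38 in EPCAM+ libraries at day 8, with 59 and 65 in EPCAM+ libraries at day 0. The fractions did not overlap for Klra3 in 4 lines and overlapped in the Nfatc1 knockout, where 1 EPCAM+ library was at 3. Klra8, Klra9 and Klra3 together made up 55.0 to 84.4% of the member sum in the EPCAM+ libraries and 0 to 31.1% in the EPCAM- libraries.

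**Figure D1:**
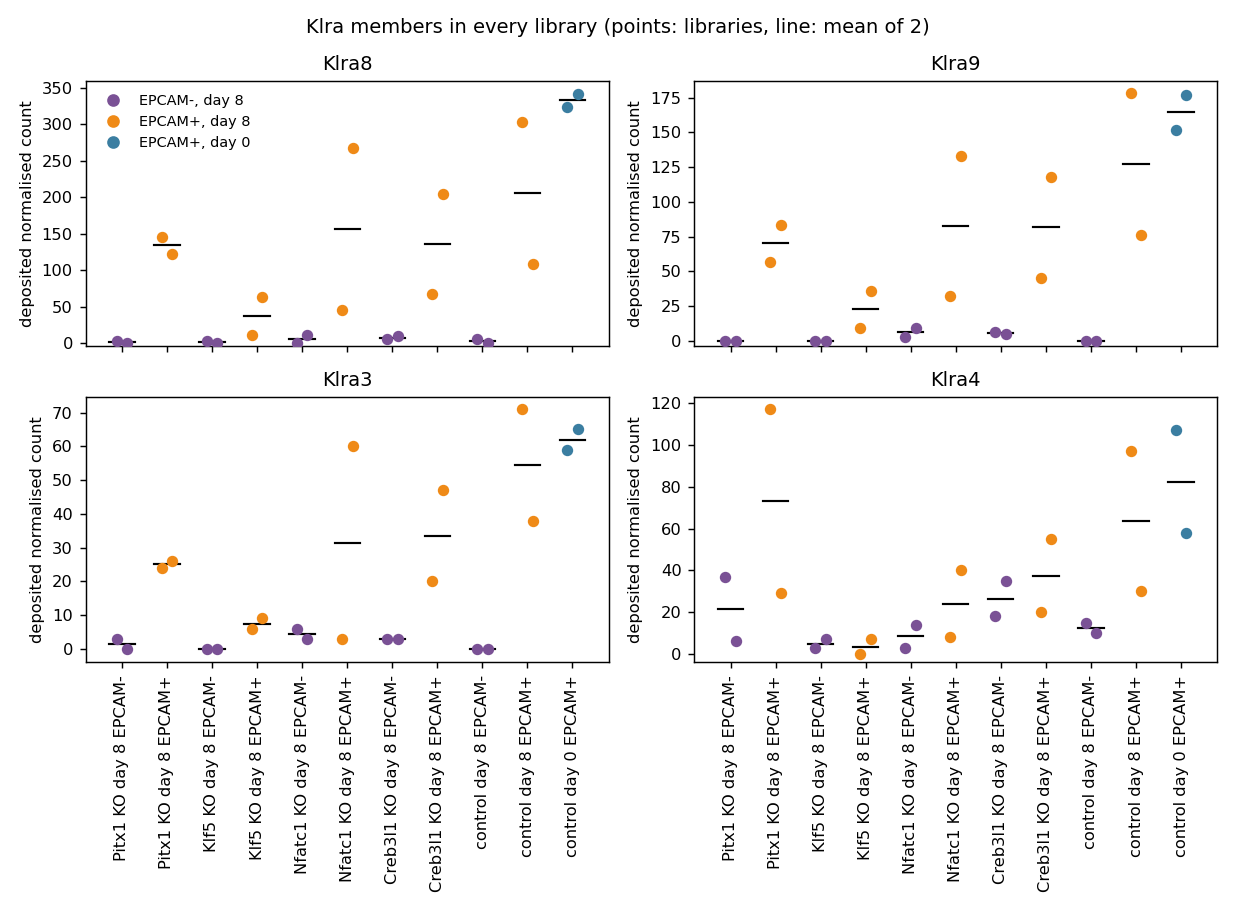
Deposited normalised counts (y axis) of Klra8, Klra9, Klra3 and Klra4 in each of the 11 groups (x axis), with 1 point per library and a line at the mean of the 2 libraries. Klra8 was at most 11 in EPCAM- libraries and at least 12 in EPCAM+ libraries, values that were 4 reads each. The day 0 control libraries (323 and 342) were its highest.

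Klra1, Klra7 and Klra6 had medians near the limit of detection. Klra1 (Ly49A) was 0 to 3 in EPCAM- libraries, where 9 of 10 were at 0, and 0 to 34 (median 4.5) in EPCAM+ libraries. Klra7 (Ly49G) was 0 to 3 in EPCAM- libraries and 0 to 15 (median 3) in EPCAM+ libraries. Klra6 (Ly49F) was 0 to 11 in EPCAM- libraries and 0 to 10 in EPCAM+ libraries, with a median of 3 in both, from 13 and 14 reads. Its order between fractions differed among the lines, at 0 to 3 reads in most libraries.

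Klra10 (Ly49J) was 0 to 6 in EPCAM- libraries, where 8 of 10 were at 0, and 3 to 45 (median 14.5) in EPCAM+ libraries, where none was at 0. Klra2 (Ly49B), which is known in mice from myeloid cells rather than NK cells, was 8 to 29 (median 16.5) in EPCAM- libraries and 5 to 36 (median 14.5) in EPCAM+ libraries. Its fractions overlapped in all 5 lines, and its highest group, the Nfatc1 knockout, had 29 and 25 in EPCAM- libraries and 36 and 24 in EPCAM+ libraries. Without Klra2 the member sum was 7 to 53 in EPCAM- libraries and 30 to 721 in EPCAM+ libraries.

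The members with no overlap between fractions, EPCAM- below EPCAM+, were counted in each line. They numbered 5 of 9 in the Pitx1 knockout, where 13.5% of all tested genes had that order. In the Klf5 knockout they were 3 of 9 against 12.7% of genes, and in the Nfatc1 knockout 3 of 9 against 9.92%. In the Creb3l1 knockout they were 5 of 9 against 12.1% and in the control line 7 of 9 against 14.9%. Klra8 and Klra9 had that order in each of the 5 lines, as did 1.72% of genes. The members were chosen on these libraries, so nothing is read from these shares. The counts also include members with few reads in the 2 EPCAM+ libraries of a line together. Klra7 had 6 such reads in the Pitx1 knockout and 3 in the control line. Klra6 had 6 in the Creb3l1 knockout and Klra3 had 6 in the Klf5 knockout.

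Per length of the longest annotated transcript, the median level over the 12 EPCAM+ libraries was 5.68 RPKM (reads per kb of transcript, scaled to library size) for Klra8 and 3.08 for Klra9. Klra4 followed at 1.39, Klra3 at 1.29 and Klra10 at 0.858 RPKM. Klra2 was at 0.376, Klra1 at 0.117, Klra7 at 0.112 and Klra6 at 0.111 RPKM. The spreads of neighbouring members in this order overlapped. Over the 10 EPCAM- libraries the highest medians were 0.459 RPKM for Klra4 and 0.456 for Klra2.

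Several members share stretches of sequence, which limits how far a read can be placed. Of the 50-letter stretches of each member's annotated transcripts, 39.8% of Klra10, 33.1% of Klra8, 31.5% of Klra9 and 20.7% of Klra3 also occurred in another Klra gene, against 4.35% of Klra4 and none of Klra2. Of 100-letter stretches 5.25% of Klra10, 14.4% of Klra8, 4.07% of Klra9 and 1.78% of Klra3 did. The gene sharing most with Klra8 at both lengths was the pseudogene Klra14-ps, and with Klra9 it was Klra3 at 50 letters and Klra11-ps at 100. The length of the counted reads is not used here, values of single members are uncertain to that extent, and the cell lines' strain may hold other Klra copies than the C57BL/6J reference.

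The balance of Klra9 to Klra8 was similar across EPCAM+ libraries even where their levels were far apart. Klra9 made up 27.9 to 42.9% of the Klra8 and Klra9 reads in single libraries and 35.5% over all 12 (410 of 1154 reads, Wilson 95% interval 32.8 to 38.3%). The interval of each of the 12 libraries held the pooled share, but each library is part of that pool. Several were wide, such as 15.8 to 75.0% in Klf5 knockout EPCAM+ replicate 1, from 3 Klra9 and 4 Klra8 reads. These intervals cover counting error only, and the shared stretches bear on this ratio too.

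**Figure D2:**
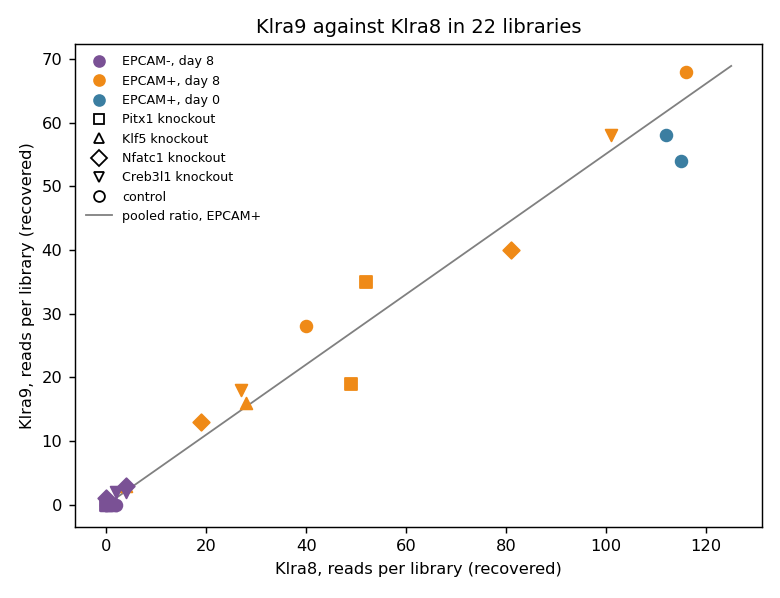
Reads of Klra9 (y axis) against reads of Klra8 (x axis) recovered in each of the 22 libraries, coloured by fraction and day and shaped by line, with a line at the pooled ratio of the EPCAM+ libraries (35.5% Klra9). EPCAM- libraries sit near the origin and EPCAM+ libraries spread along the line.

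The family's other genes had low values. Klra5 was 0 in all 10 EPCAM- libraries and 0 to 9 in EPCAM+ libraries, and Klra17, at the edge of the cluster, was at 0 in all 22. The pseudogenes Klra14-ps, Klra11-ps and Klra13-ps were 0 to 8, 0 to 6 and 0 to 3 in EPCAM- libraries and 3 to 51, 0 to 37 and 0 to 54 in EPCAM+ libraries. All 3 lie between members in the 374 kb stretch.

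**Figure D3:**
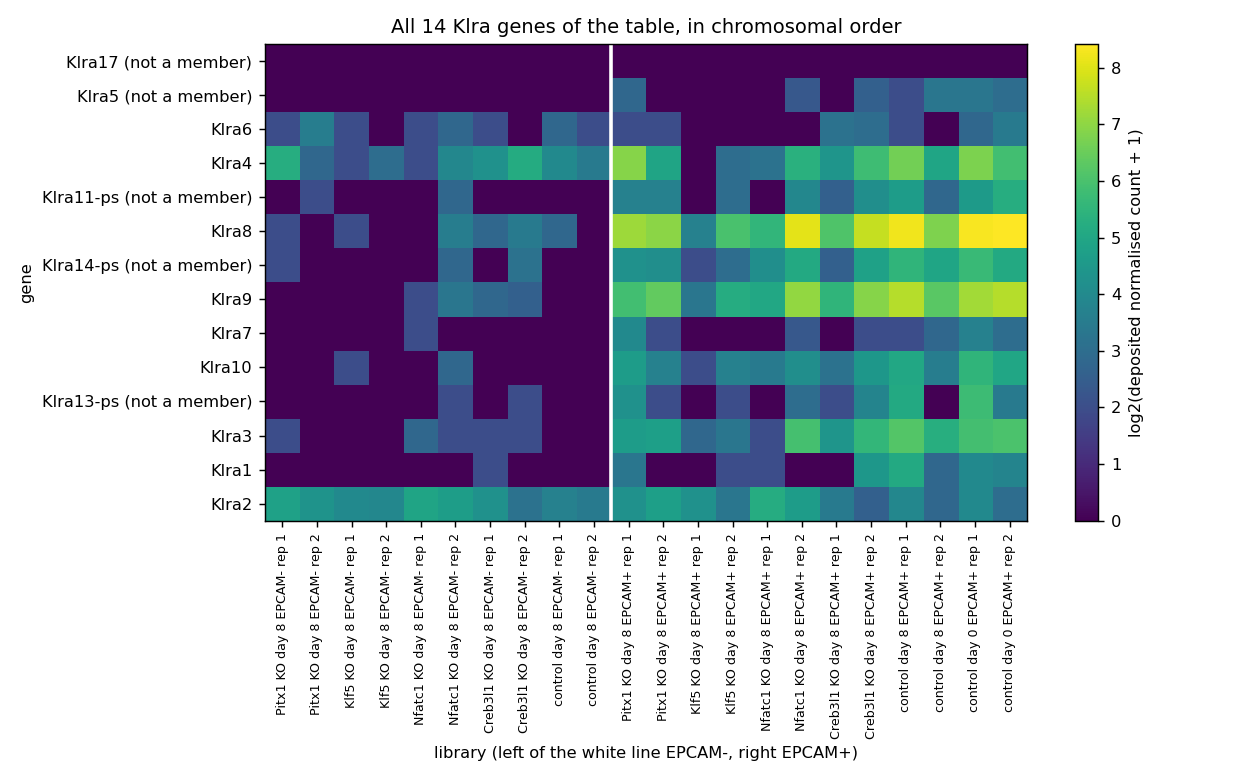
Level of the 14 Klra genes of the table (rows, in chromosomal order, log2 of the deposited normalised count + 1) in 22 libraries (columns, EPCAM- left of the white line, EPCAM+ right). Klra8 and Klra9 are the brightest rows on the right, Klra4 and Klra2 are above 0 in every EPCAM- library, and Klra17 is at 0 throughout.

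Beyond the cluster, most of the other lectin genes of the natural killer gene complex were near 0. Of 28 such genes in the table, 23 were at most 10 and 5 were at 0 in every library, among them Klrk1, which encodes the activating receptor NKG2D. Klrb1 was 0 to 17 in EPCAM- libraries and 15 to 106 in EPCAM+ libraries. The kinase gene Styk1, beyond Klra2 on the chromosome, was 0 to 13 in EPCAM- libraries and 3 to 49 in EPCAM+ libraries, and Klrc1, which encodes NKG2A, was 0 to 3 and 0 to 17. The neighbouring Magohb and Ybx3 were well expressed in both fractions, Ybx3 at 7411 to 14323 in EPCAM- libraries and 7682 to 13784 in EPCAM+ libraries.

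Genes that mark leukocytes were examined in the same libraries. Of 24 NK and T lymphocyte markers, 22 were at most 50 in every library, and Cd3e, Cd3g, Gzma, Klrk1 and Ncr1, which encodes the NK receptor NKp46, were at 0 in all 22. The exceptions were Cd247, the T cell receptor zeta chain, at 437 to 604 in EPCAM- libraries and 382 to 634 in EPCAM+ libraries, and the transcription factor gene Eomes, at 124 to 303 and 330 to 879. The summed list was 640 to 912 in EPCAM- libraries and 806 to 1482 in EPCAM+ libraries. NK cytotoxic granule genes were at or near 0, with Prf1 at most 5, Gzmb at most 4 and Nkg7 at most 3.

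Ptprc, which encodes the leukocyte antigen CD45, was at most 9 in any library. It was 9 and 5 in EPCAM- libraries and 6 and 9 in EPCAM+ libraries of the control line at day 8, and 0 in both day 0 control libraries, whose member sums were 734 and 710. It was also 0 in 10 of the 12 EPCAM+ libraries. Of 12 pan-leukocyte markers, 10 were at most 50 everywhere, Tyrobp was at 0, and Arhgdib and Cd53 were above 50. Arhgdib was 59 and 74, and Cd53 54 and 0, in the day 0 control libraries. They were 66 and 34 in control day 8 EPCAM+ replicate 1, whose member sum was 735. Arhgdib was at most 29 in the other EPCAM+ libraries, among which Cd53 reached 60. The highest Arhgdib value, 425, was in control day 8 EPCAM- replicate 1, whose member sum was 39. How far leukocytes contributed to the member values was not tested. The pan-leukocyte list summed to 76 to 561 in EPCAM- libraries and 52 to 153 in EPCAM+ libraries.

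Of 7 B lymphocyte markers, Ms4a1 and Pax5 were at 0. Ighm, an immunoglobulin heavy chain gene, was 63 in the EPCAM- library and 207 in the EPCAM+ library of control replicate 1 at day 8 and 0 in the other 20. The list summed to 0 to 66 in EPCAM- libraries and 0 to 215 in EPCAM+ libraries. Of 15 myeloid markers C1qa and C1qc were at 0, Csf1r, Cd14, Cd68 and Mrc1 were above 50 in at least 1 library, and the list summed to 272 to 527 in EPCAM- libraries and 281 to 660 in EPCAM+ libraries.

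All 12 epithelial markers were above 50 in at least 1 library, summing to 18293 to 28885 in EPCAM- libraries and 44503 to 68783 in EPCAM+ libraries. All 8 mesenchymal markers were too, summing to 120536 to 179704 in EPCAM- libraries and 24810 to 138357 in EPCAM+ libraries. Of 6 endothelial markers Kdr and Pecam1 were above 50, with sums of 65 to 431 and 69 to 203.

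**Figure D4:**
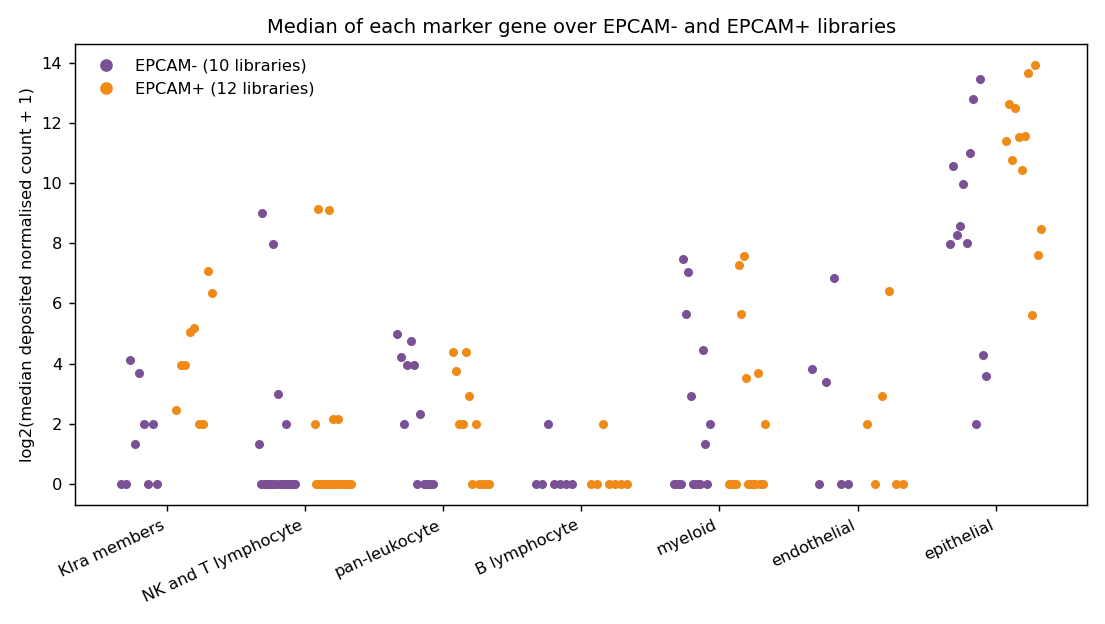
Median level of each gene (y axis, log2 of the median deposited normalised count + 1) over 10 EPCAM- libraries (left points) and 12 EPCAM+ libraries (right points) for the Klra members and 6 marker lists (x axis). Lymphocyte markers have medians of at most 7 in either fraction, apart from Cd247 and Eomes, while Klra8 and Klra9 are the highest members in EPCAM+ libraries.

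The partners that the receptors need were unevenly present. Tyrobp and Hcst, the adaptors of the activating receptors, were at 0 in all 22 libraries. Ptpn6, which encodes SHP-1, was 67 to 260 in EPCAM- libraries and 124 to 248 in EPCAM+ libraries, and Ptpn11, which encodes the related SHP-2, was 3447 to 5700 and 3656 to 6569. The kinase gene Syk was 310 to 1383 in EPCAM- libraries and 481 to 1661 in EPCAM+ libraries. Sh2d1b1, which encodes the adaptor EAT-2, was 0 to 20 in EPCAM- libraries and 9 to 59 in EPCAM+ libraries.

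The ligands were expressed in both fractions. B2m, the common light chain of MHC class I, was 8341 to 14906 in EPCAM- libraries and 7060 to 13610 in EPCAM+ libraries. H2-K1 was 2938 to 4192 and 2775 to 4221, and H2-D1 was 2262 to 2962 and 2187 to 2929. None of the 11 ligand and antigen presentation genes tested, and none of the 7 signalling genes tested, was called in any of the 9 comparisons of knockout with control or of day 8 with day 0, in which 0% to 0.915% of all genes were called.

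The question of whether the knockouts or time changed the members was tested with limma on log2(value + 1), calling a gene at a Benjamini-Hochberg adjusted p below 0.05 over 19569 genes. All 9 members passed the filter on low values over the 22 libraries, 3 of them also over the EPCAM- libraries alone, and none was called in any of the 9 comparisons. The members' log2 fold changes had wide standard errors, from 0.609 for Klra2 to 1.45 for Klra1, since the libraries of a group differed. The fit pools the spread of a gene over all 11 groups, so a member's standard error was the same in both fractions. For members at or near 0 in EPCAM- cells, the pooled spread may be smaller than that of the EPCAM+ libraries. Their unadjusted p-values in EPCAM+ cells may then be too low.

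Klf5 knockout EPCAM+ cells had the lowest mean of the EPCAM+ groups for Klra8, Klra9, Klra3, Klra4, Klra10 and Klra7. The library label is taken as given, since Klf5 RNA was 2247 and 1961 in them, against 2585 and 1733 in control libraries. With limma 0 of 9 members were called, where 0.0511% of genes were; 3 members and 7.00% of genes had an unadjusted p below 0.05, and limma voom on recovered reads called 0. Klra4 (0 and 7 in Klf5 knockout, against 97 and 30 in control libraries) had a log2 fold change of -4.28 (SE 1.11, adjusted p = 0.347, limma). Klra9 (9 and 36, against 178 and 76) had one of -2.61 (SE 0.776, adjusted p = 0.503, limma) and Klra3 (6 and 9, against 71 and 38) one of -2.66 (SE 0.990, adjusted p = 0.616, limma). Klra8 (12 and 63, against 303 and 109) had a log2 fold change of -2.66 (SE 1.27, adjusted p = 0.718, limma).

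Both libraries of the Klf5 knockout were below both control libraries for these 4 members and for Klra1 and Klra7, 6 of 9, an order that 16.5% of all tested genes had. Of the 9 log2 fold changes 8 were below 0, as in the Nfatc1 and Creb3l1 knockouts and at day 8 against day 0, and 5 were in the Pitx1 knockout. Leaving out 1 library moved that of Klra4 to between -5.78 and -2.78, that of Klra8 to between -3.81 and -1.51 and that of Klra9 to between -3.55 and -1.67, each lowest without Klf5 knockout replicate 2 and nearest to 0 without its replicate 1. With a pseudocount of 5 that of Klra4 was -2.95. The median log2 fold change was -2.61 over the members and -0.01 over all genes. Epcam was 3702 and 5408 in Klf5 knockout EPCAM+ libraries, against 6153 and 5633 in day 8 control libraries, and its part in the members' values was not tested. The counts of fold changes below 0 are not independent. The comparisons share the day 8 control libraries, and several members went up and down together.

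In Pitx1 knockout EPCAM+ cells limma called 0 of 9 members, where 0.409% of genes were called. None of the members and 10.3% of genes had an unadjusted p below 0.05, and voom called 0. Klra8 (146 and 122 in knockout, against 303 and 109 in control libraries) had a log2 fold change of -0.44 (SE 1.27, adjusted p = 0.955, limma) and Klra9 (57 and 83, against 178 and 76) one of -0.75 (SE 0.776, adjusted p = 0.824, limma). Knockout and control libraries overlapped for both genes, and the members' median was -0.14 against 0.01 over all genes.

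In Nfatc1 knockout EPCAM+ cells limma called 0 of 9 members and 0% of all genes, 1 member and 7.50% of genes had an unadjusted p below 0.05, and voom called 0. That member was Klra2 (36 and 24 in knockout, against 14 and 6 in control libraries), with a log2 fold change of 1.57 (SE 0.609, adjusted p = 0.627, limma). Klra8 (46 and 268, against 303 and 109) had one of -0.70 and Klra9 (32 and 133, against 178 and 76) one of -0.82, with overlapping libraries. The members' median was -1 against -0.04 over all genes.

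In Creb3l1 knockout EPCAM+ cells limma called 0 of 9 members, where 0.194% of genes were called, with 0 members and 5.99% of genes at an unadjusted p below 0.05 and 0 called by voom. Klra8 (67 and 205 in knockout, against 303 and 109 in control libraries) had a log2 fold change of -0.63 and Klra9 (45 and 118, against 178 and 76) one of -0.67, both with overlapping libraries. The members' median was -0.67 against -0.02 over all genes. The 4 knockout comparisons in EPCAM+ cells share the same control libraries, and the direction for Klra8 in the Pitx1, Nfatc1 and Creb3l1 knockouts, and for Klra9 in the Nfatc1 and Creb3l1 knockouts, turned when 1 library was left out.

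**Figure D5:**
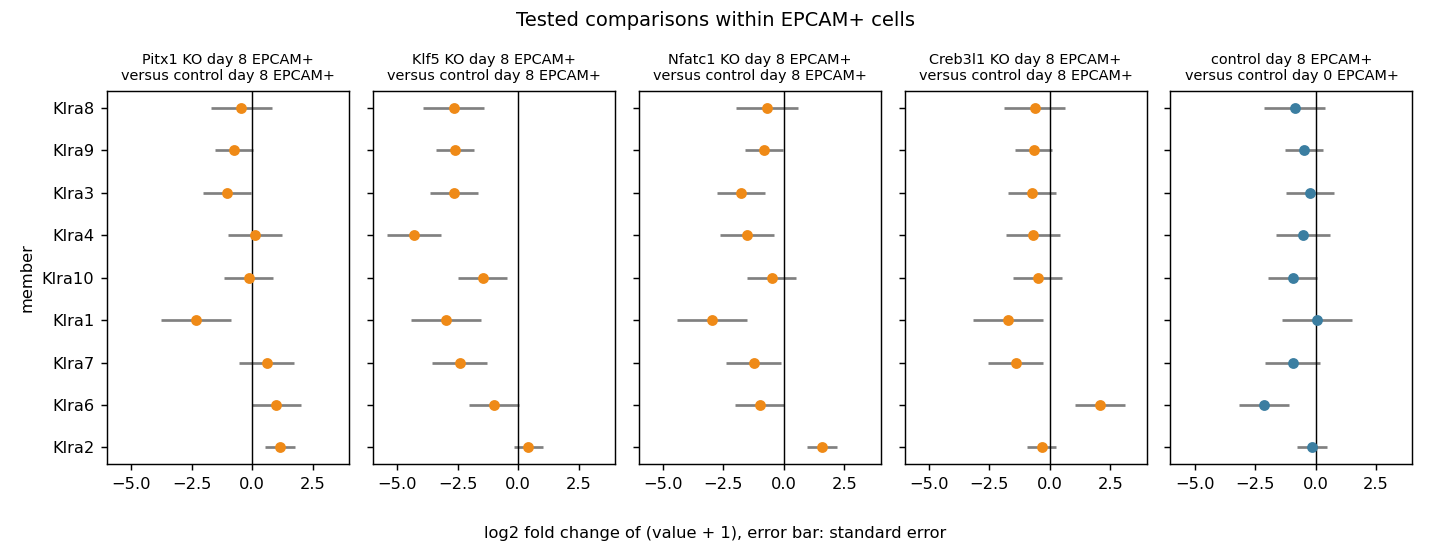
Log2 fold change of (value + 1) (x axis, error bar standard error from limma) of the 9 members (rows) in EPCAM+ cells of 4 knockouts against the day 8 control and of the day 8 against the day 0 control. In the Pitx1 knockout panel 5 of 9 points lie left of 0 and in each other panel 8 of 9, and no member was called in any panel.

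Day 8 was compared with day 0 in EPCAM+ control cells. Limma called 0 of 9 members and 0% of genes, with 0 members and 4.25% of genes at an unadjusted p below 0.05 and 0 called by voom. Klra8 (303 and 109 at day 8, against 323 and 342 at day 0) had a log2 fold change of -0.87 (SE 1.27, adjusted p = 1, limma) and Klra9 (178 and 76, against 152 and 177) one of -0.49 (SE 0.776, adjusted p = 1, limma). Day 8 replicate 1 was close to the day 0 libraries and replicate 2 below them, and without replicate 2 the log2 fold change of Klra9 was 0.12. The members' median was -0.53 against 0 over all genes.

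In EPCAM- cells the members' values rest on few reads, and Klra2, Klra4 and Klra8 were the 3 members that reached 10 in 2 or more EPCAM- libraries. The others passed the filter only with EPCAM+ libraries counted and, at or near 0 here, could hardly be called, and with only the groups compared 2 members were left to test in each of these comparisons. Limma called 0 of 9 members in the Pitx1, Klf5, Nfatc1 and Creb3l1 knockouts against control, where 0.915%, 0.153%, 0% and 0.261% of genes were called, and voom called 0 in each. Members with an unadjusted p below 0.05 numbered 0, 0, 2 and 1 in that order, beside 10.5%, 5.71%, 3.75% and 6.03% of genes. Klra9 was 3 and 9 in Nfatc1 knockout and 6 and 5 in Creb3l1 knockout libraries, against 0 and 0 in control libraries. Its log2 fold changes were 2.66 (adjusted p = 0.843, limma) and 2.70 (adjusted p = 0.304, limma), from 4 reads in each knockout, and such values against 0 depend on the pseudocount. The other was Klra3 in the Nfatc1 knockout, 6 and 3 against 0 and 0.

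The genes whose levels were most like the members were sought among 12439 other genes with a mean of at least 50 over the 12 EPCAM+ libraries. The measure was Pearson's r between log2(value + 1) of the gene and of the member sum, given as a description of 12 libraries that share lines and batches. Acadl, a mitochondrial enzyme of fatty acid oxidation, was first with r = 0.969 (Spearman's rank correlation 0.930). Ect2, which acts in cytokinesis, had r = 0.943 (Spearman 0.916) and Map7, a microtubule-associated protein, r = 0.934 (Spearman 0.853). Rnf39 and Tgm1, the keratinocyte transglutaminase, had r = 0.931 each, Erbb3, a receptor of the EGFR family, r = 0.930 and Hist1h2bl, a histone H2B gene, r = 0.929. Sec22c, Crip2 and Cmc2 followed at 0.924, 0.920 and 0.919. The measure does not cover EPCAM- libraries. Acadl was 1719 to 2409 in EPCAM- libraries and 1870 to 2997 in EPCAM+ libraries, and most of the genes named here overlapped between fractions. Those that did not were Map7 (3 to 26 in EPCAM- libraries, 137 to 415 in EPCAM+ libraries) and Erbb3 (62 to 274 and 612 to 1453).

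A total of 30 genes had r above 0.9, Epcam had r = 0.794 and Eomes r = 0.586. The ranking was not stable, since 1 of the 10 genes, Hist1h2bl, was also among the first 10 by Spearman's rank correlation and 4 of 10 were without the day 0 libraries. Between members over the same 12 libraries r was 0.985 for Klra8 and Klra9 and 0.928 for Klra8 and Klra4, while that of Klra2 with each of the other 8 members was below 0, from -0.45 to -0.15.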

How the data were processed

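The members and gene lists were chosen with earlier results of these data known. FastQC, Trimmomatic, STAR, Picard and HTSeq with GRCm38/mm10 are named in the submitters' processing notes, without versions, and RNeasy micro and Ovation Solo kits per the labels' protocols. The authors deposited per-gene normalised counts, read here as a score: 99.8 to 99.9% of a library's values were whole multiples of a step of 2.02 to 3.30 units, rounded up to the next unit, which was taken as 1 read. As the deposited values are normalised and rounded, the main test was on the log scale, and recovered reads served for voom, read counts, intervals and levels per length. Deposited totals were 20007331 to 20014236 per library, and 20184 to 22616 genes were detected.

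Testing was limited to the 19569 genes, of 31139 above 0, that reached 10 in 2 or more libraries, on log2(value + 1), in 1 limma 3.58.1 fit (R 4.3.3; data.table, release 1.17.8) of all 22 libraries with 11 group means, trended robust variances, 11 residual and a median of 5.63 prior degrees of freedom, and Benjamini-Hochberg adjustment within each of 9 comparisons. The fit was tested on simulated data, with the same spread for all genes and changes only in genes above a low read count. That simulation does not show how large a change could be called in the members, whose replicates differed widely. Folds without log2 are ratios of mean deposited values. Genes named beyond the members were the marker lists' genes, chromosomal neighbours and the 10 genes most like the member sum; single genes singled out for their level were chosen after their values were seen. The replicate number matches a batch tag of the labels, and the replicate difference correlated over 0.1 in 36 of 55 pairs of groups (median 0.146, range -0.131 to 0.381), with 0.171 to 0.381 between fractions of the 5 lines. A fit with that number as a block was therefore an alternative, beside a pseudocount of 5, other filters, median-of-ratios scaling, only the groups compared, limma voom on recovered reads and leaving out each replicate. Python 3.11.15, numpy 2.4.6, pandas 2.3.3, scipy 1.17.1, matplotlib 3.10.9 and Biopython 1.88 did the rest.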

Additional observations from a re-analysis of the deposited data

Results flagged for a closer look

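Klra6 was ordered in opposite ways by fraction in a pair of lines. In the Nfatc1 knockout it was 3 and 6 in EPCAM- libraries and 0 and 0 in EPCAM+ libraries, a mean of 4.5 units above, and in the Creb3l1 knockout it was 3 and 0 in EPCAM- libraries and 8 and 7 in EPCAM+ libraries. These values are 0 to 3 reads a library, at or near the limit that a count of 0 allows, and the difference between the lines was not tested.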

How the results depend on the processing

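Under the 99 alternatives run over the 9 comparisons, 0 members were called, and the lowest adjusted p of a member was 0.147 (Klra9 in Creb3l1 knockout EPCAM- cells, with the replicate block), against 0.304 without the block. The replicate block changed no member's call, although over all genes it called 386 in Pitx1 knockout EPCAM+ cells (80 without it, 39 by voom, 2 in a fit of the groups compared alone) and 27 in Klf5 knockout EPCAM+ cells (10 without it). A filter of at least 50 in at least 2 libraries left 4 members. On recovered reads scaled to library size the member sum was 6.79-fold lower in EPCAM- cells of the Pitx1 knockout, 4.05 in Klf5, 5.90 in Nfatc1, 5.75 in Creb3l1 and 17.5 in control. Without 1 replicate, a choice made after seeing the data, it was 4.91 to 9.96-fold lower in Pitx1, 2.00 to 5.79 in Klf5, 2.28 to 9.02 in Nfatc1, 3.02 to 8.17 in Creb3l1 and 9.10 to 23.7 in control. Of 15 fold changes named, 6 turned direction, each only when 1 replicate was left out. In EPCAM+ cells those of Klra8 spanned -1.18 to 0.29 (Pitx1), -1.96 to 0.56 (Nfatc1) and -1.43 to 0.17 (Creb3l1), and those of Klra9 -1.83 to 0.19 (Nfatc1), -1.35 to 0.020 (Creb3l1) and -1.10 to 0.12 (day 8 against day 0) on the log2 scale. The cause was not tested. With 2 libraries a group and members at a few reads to 116 reads a library, depth and replicate spread limit what could be called.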
